A study of Mus musculus with 6 samples.

Results

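The mouse genes named Zfp600 to Zfp999 were examined in the adult brain of Bahd1 knockout mice. The members were all rows of the count table whose gene name is Zfp followed by a number from 600 to 999 and an optional letter, which gave 187 of 53801 rows (185 distinct names, since Zfp865 and Zfp935 each had 2 identifiers). Of the 187 rows, 184 were annotated as protein coding. Polyadenylated RNA was measured in 1 brain hemisphere per sample from adult C57BL/6 mice about 70 weeks old, in 3 Bahd1-KO samples (genotype Bahd1-/-) and 3 Bahd1-WT samples (Bahd1+/+). The study used male mice, the knockouts came from crosses of heterozygous parents, and the labels give no treatment for either group. BAHD1 is a heterochromatin factor that is found in complexes with histone deacetylases, the histone methyltransferase G9a, HP1 and KAP1, the last also called TRIM28. The samples are labelled as separate replicates, and p-values measure the spread between these 6 samples. As bulk tissue was measured, fewer cells of a type and less RNA per cell cannot be told apart.

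C2H2 zinc finger proteins bind DNA through tandem fingers, each a short fold in which a pair of cysteines and a pair of histidines hold a zinc ion. The largest branch of the family carries a KRAB domain, which recruits TRIM28, the methyltransferase SETDB1 and HP1 to the bound site. KRAB zinc finger genes multiplied in mammals in step with endogenous retroviruses, and many lie in arrays of young near-copies that silence such elements in early embryos. In the brain many of them stay transcribed, together with finger factors of other kinds that have no KRAB domain.

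A KRAB-A box motif of 10 fixed residues, allowing 3 mismatches, was found in the coding sequence of 130 of the 184 members that have one. It matched without a mismatch in 90. The median number of finger motifs was 11 in members with the KRAB motif and 7 in those without it, and the longest array held 33. Members were spread over 26 genomic clusters, defined as runs of members within 500 kb of each other, which held 132 members (111 with the KRAB motif). The remaining members lay alone.

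The stretches below show what the members are made of and how they differ in base composition, with which their fold changes ranked. Each holds the first 3 fingers of the protein that follow each other with the usual linker. They come from GENCODE M21 transcripts on GRCm38 and each lie in coding sequence within 1 exon, namely exon 3 of 3 in Zfp628, exon 6 of 6 in Zfp984 and exon 5 of 6 in Zfp809. Zfp628 had the highest and Zfp984 the lowest log2 fold change among members with a mean of 1 CPM or more over the 6 samples (counts scaled to library size), and Zfp809 is a well-studied silencer of retroviruses. Capitals mark the codons of the zinc-binding cysteines and histidines.
Zfp628 (chr7:4918886-4919116, plus strand): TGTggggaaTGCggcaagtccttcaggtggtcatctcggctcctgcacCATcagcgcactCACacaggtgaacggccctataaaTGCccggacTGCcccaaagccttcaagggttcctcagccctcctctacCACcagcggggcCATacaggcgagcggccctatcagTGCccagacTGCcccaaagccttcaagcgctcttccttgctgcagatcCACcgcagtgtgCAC
Zfp984 (chr4:147755445-147755675, minus strand): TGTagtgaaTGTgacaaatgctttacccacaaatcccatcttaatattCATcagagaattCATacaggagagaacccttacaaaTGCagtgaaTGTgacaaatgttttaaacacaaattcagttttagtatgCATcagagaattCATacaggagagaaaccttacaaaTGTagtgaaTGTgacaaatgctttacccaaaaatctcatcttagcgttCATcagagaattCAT
Zfp809 (chr9:22238851-22239081, plus strand): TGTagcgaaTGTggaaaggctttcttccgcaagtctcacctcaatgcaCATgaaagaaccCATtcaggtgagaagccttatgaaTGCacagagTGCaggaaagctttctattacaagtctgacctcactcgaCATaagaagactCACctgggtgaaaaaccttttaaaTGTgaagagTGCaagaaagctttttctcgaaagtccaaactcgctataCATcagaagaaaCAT
All 3 stretches are 231 bases long. GC made up 61.0% of the Zfp628 stretch, 34.2% of that of Zfp984 and 42.0% of that of Zfp809. At the third positions of the codons, which can vary most without a change of residue, the values were 72.7%, 28.6% and 41.6%.

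Of the 187 members, 169 had at least 10 counts over the 6 samples and were tested. Of the 18 others, 9 had no count in any sample and 9 had 1 to 3 counts in all. The untested members included Zfp708, a KRAB protein known to bind retroelements, which was at 0 in every sample and shares all its 65-base windows with other genes. A member of this kind can be at 0 because its reads match several genes. The counting options listed in the study's methods name none for such reads, which featureCounts leaves out by default. Zfp987, Zfp640, Zfp978, Zfp973, Zfp989, Zfp966 and Zfp967 had counts in 1 genotype only, with 3 counts at most, and no fold change is given for them.

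Levels per length were compared as RPKM, averaged over the 6 samples. At least 1 RPKM was reached by 130 members, of which 85 carried the KRAB motif, 44 did not and 1, Zfp939, has no coding sequence, and 10 members reached 10 RPKM. Zfp706, a small protein of 76 residues with 1 finger motif, had the highest level, at 42.8 RPKM and between 31.5 and 49.3 in the single samples. It was followed by Zfp612 (18.4 RPKM), Zfp664 (17.2 RPKM), Zfp938 (17.2 RPKM), Zfp869 (16.1 RPKM) and Zfp788 (15.4 RPKM), whose ranges over samples overlapped with each other. All of these except Zfp706 and Zfp664 carried the KRAB motif. The median level of the tested members was 2.88 RPKM with the KRAB motif and 3.70 RPKM without it, beside 1.26 RPKM for all genes tested.

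**Figure D1:**
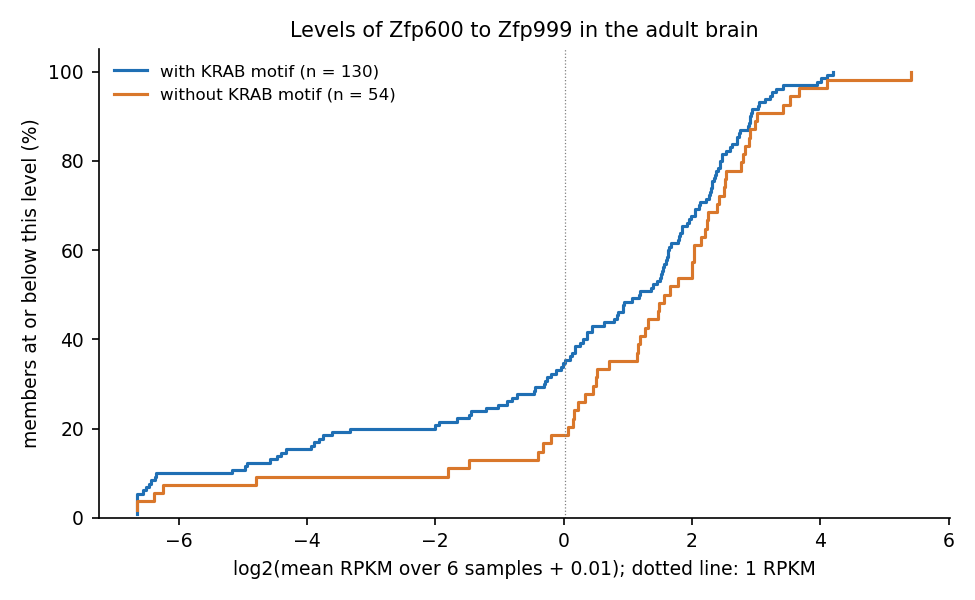
Cumulative share of members (vertical axis, %) by mean RPKM over the 6 samples (horizontal axis, log2 of RPKM + 0.01), for the 130 members with and the 54 members without the KRAB motif. More of the KRAB curve lies left of the dotted line at 1 RPKM, and the step at the far right is Zfp706.

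Bahd1 itself had 1383, 844 and 1099 counts in Bahd1-WT replicates 1 to 3 and 0, 14 and 1 in Bahd1-KO replicates 1 to 3 (adjusted p = 0.0135, edgeR's quasi-likelihood test with Benjamini-Hochberg adjustment). Total counts per sample ran from 42297150 to 93557948. Defining markers of neurons, astrocytes, oligodendrocytes, microglia and endothelial cells were present in all samples. At an unadjusted p under 0.05 in edgeR's quasi-likelihood test, 2 of 4 neuron, 2 of 4 astrocyte and 2 of 4 microglia markers were higher. So were 1 of 4 oligodendrocyte and 1 of 3 endothelial markers, and 1 astrocyte marker was lower. Over all genes 19.9% were higher and 12% lower by this rule. The summed choroid plexus markers were at 249 to 345 CPM in Bahd1-WT and 430 to 1051 CPM in Bahd1-KO. Of these 3 markers, 1 was higher and 1 lower by the same rule, with log2 fold changes from -0.40 to 1.29. The 3 lung markers summed to 2.06 to 95.2 CPM in Bahd1-WT and 0.437 to 1.37 CPM in Bahd1-KO. The part of these other tissues in the values of the members was not tested.

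No member passed the threshold of an adjusted p under 0.05 with at least a 2-fold change in edgeR's quasi-likelihood test. Over all 23975 genes tested, 0.00417% passed it in each direction. The smallest adjusted p of a member in that test was 0.0634. DESeq2 with its normal prior called 11 members, of which 7 were higher (Zfp628, Zfp651, Zfp653, Zfp707, Zfp710, Zfp768 and Zfp853) and 4 were lower (Zfp820, Zfp977, Zfp984 and Zfp992), beside 11.9% higher and 1.13% lower over all genes. Zfp977 and Zfp992 were named after their values were seen. Without Bahd1-KO replicate 1, edgeR's quasi-likelihood test called 42 members, 29 of them lower, beside 16.8% of all genes. At an adjusted p under 0.1, 45 members were lower in Bahd1-KO and 12 were higher, beside 4.77% lower and 14.7% higher over all genes. At an unadjusted p under 0.05, 86 members (50.9% of those tested) were lower and 17 (10.1%) were higher, against a background of 12% lower and 19.9% higher. The number lower dropped to 56, 31 and 52 without Bahd1-WT replicates 1, 2 and 3, beside 6.13%, 4.79% and 8.36% of all genes, and to 51 without Bahd1-KO replicate 3, beside 8.93%. In 99 members all Bahd1-KO samples lay below all Bahd1-WT samples and in 19 above, against 19.3% and 20.6% of all genes. The median log2 fold change, Bahd1-KO against Bahd1-WT, was -0.55 over the members and -0.06 over all genes. The 212 other tested genes with a Zfp name and number had a median of -0.34, with 76 lower and 32 higher at an unadjusted p under 0.05.

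Members with and without the KRAB motif were then set side by side, and the difference between these groups was not tested. Among the 117 tested members with the KRAB motif, 75 (64.1%) were lower at an unadjusted p under 0.05 and 5 (4.27%) were higher, and the median log2 fold change was -0.63. Among the 50 without it, 10 (20%) were lower and 12 (24%) were higher, and the median was 0.10. Over all genes the shares were 12% lower and 19.9% higher. The groups also had different base compositions, as the median GC content of the longest transcript was 40.6% with the KRAB motif and 50.9% without it.

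Across the members, the log2 fold change ranked with transcript GC (Spearman's rho 0.83 over 169 members, a description over genes that share the same 6 libraries). The value was 0.69 within KRAB members, 0.83 within the others and 0.74 over all genes tested. With the GC of the coding sequence alone rho was 0.86, over 167 members, and with the GC of the promoter window (250 bases before to 50 after the start, RefSeq on GRCm38.p6) it was 0.42, over the 144 members that had a window. The window used was the nearest one within 100 kb of the annotated start of the gene, and that of Zfp993 lay 98112 bases away. With the number of finger motifs rho was -0.31 and with transcript length 0.07.

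Members were therefore set beside other genes of like GC. In transcripts under 40% GC, the median log2 fold change was -0.79 over 53 KRAB members, -0.67 over 6 members without the motif and -0.64 over 1994 genes with no Zfp number. From 40 to 45% GC the same medians were -0.59, -0.36 and -0.45. From 45 to 50% GC they were -0.42, -0.05 and -0.19. From 50 to 55% GC they were 0.25, 0.10 and 0.30. At 55% GC or more, 3 KRAB members had a median of 1.04, 13 members without the motif had 1.34, and the 4456 other genes had 1.09. The medians of members and of other genes thus ran in the same order from AT-rich to GC-rich transcripts. The shares of genes lower at an unadjusted p under 0.05 lay farther apart, at 83% of KRAB members, 84.2% of other genes with a Zfp number and 37.9% of genes with no Zfp number under 40% GC, where all 6 members without the motif were lower. From 40 to 45% GC the same shares were 65.9%, 61.4% and 27.1%, and from 45 to 50% GC they were 33.3%, 16.1% and 8.37%. In these bands 42.9% of 7 and 10% of 10 members without the motif were lower. The genes of a band were not matched on expression level, and the differences within bands were not tested.

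**Figure D2:**
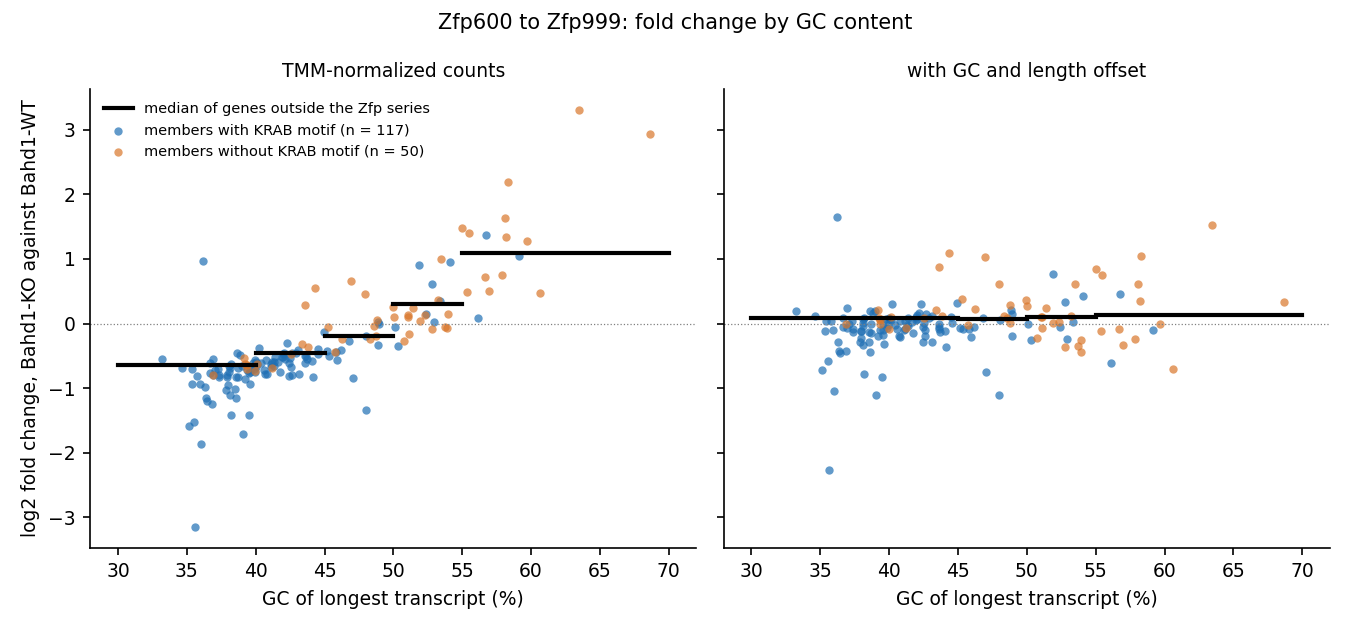
Log2 fold change of each tested member (points, coloured by KRAB motif) against the GC percent of its longest transcript, from TMM-normalized counts (left) and with the GC and length offset (right). Black bars are medians of genes outside the Zfp numbers in 5 GC bands, from -0.64 to 1.09 on the left, and the points also run from low to high with GC. The 2 tested members without a coding sequence are not drawn.

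The same fit was run with an offset, a smooth curve of log count against transcript GC and length that was estimated within each library from 13250 genes. Such an offset takes out the smooth part of any difference that runs with GC, whatever its source, so a genotype effect that follows GC and a GC effect of the libraries cannot be told apart. With it Spearman's rho between log2 fold change and transcript GC over the members was 0.23, against 0.83 without it. The median log2 fold change of the members was then -0.01, beside 0.09 over all genes. At an unadjusted p under 0.05, 10 members were lower and 12 were higher, beside 5.9% lower and 17.5% higher over all genes. The KRAB members had a median of -0.05, with 7 lower and 1 higher, and the others had 0.10, with 3 lower and 11 higher. Without the offset, 75 KRAB members were lower by the same rule.

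The shift of the KRAB members was uneven between the Bahd1-KO samples. Over the 101 KRAB members at 1 CPM or more, the median log2 ratio to the Bahd1-WT mean was -0.06, 0.09 and -0.04 in Bahd1-WT replicates 1 to 3 and -0.26, -0.98 and -0.64 in Bahd1-KO replicates 1 to 3. Each Bahd1-KO value lay below each Bahd1-WT value, with replicate 2 farthest away and replicate 1 nearest. With the offset the Bahd1-KO values were -0.02, 0.00 and -0.06 and overlapped with those of Bahd1-WT. The 48 members without the motif had medians near 0 in every sample before the offset, but in Bahd1-KO replicate 2 their middle 50% spanned from -0.60 to 0.95. Over all genes at 1 CPM or more the middle 50% of that sample ran from -0.60 to 0.87.

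**Figure D3:**
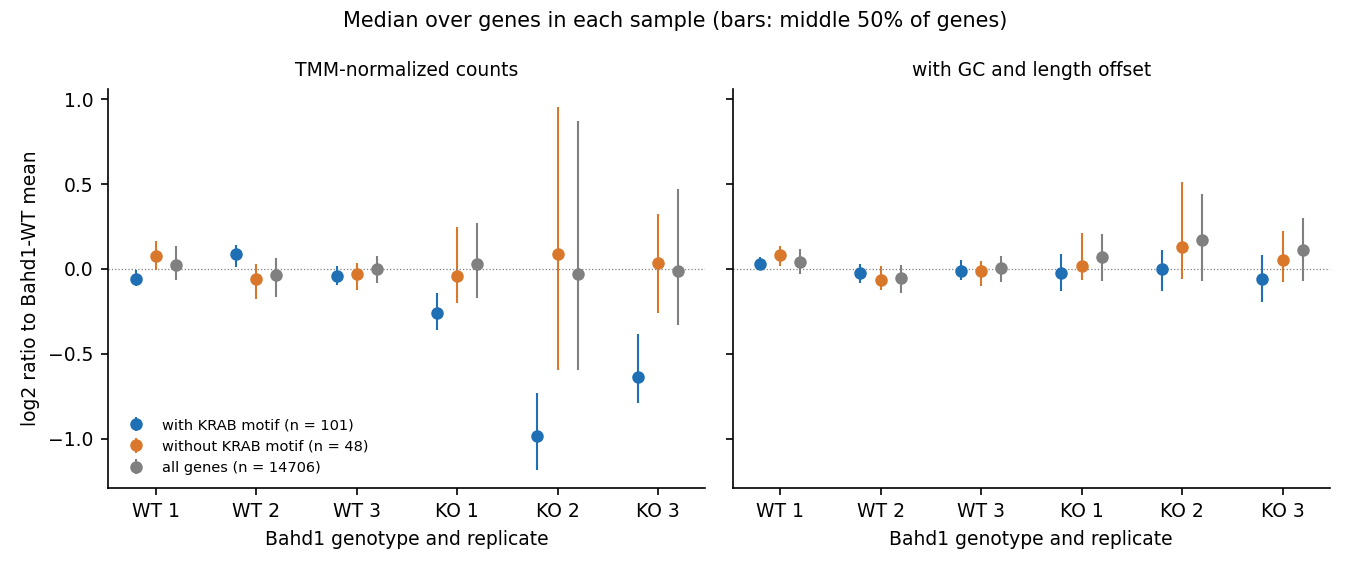
Median log2 ratio to the Bahd1-WT mean in each sample (points) with the middle 50% of genes (bars), for KRAB members (101), members without the motif (48) and all genes (14706) at 1 CPM or more, without (left) and with (right) the GC and length offset. On the left the KRAB medians of Bahd1-KO replicates 1 to 3 are at -0.26, -0.98 and -0.64. On the right they are near 0.

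The highest log2 fold changes at a mean of 1 CPM or more belonged to GC-rich members, 7 of 8 without the KRAB motif. The leading pair, Zfp628 and Zfp771, had Bahd1-WT means of 0.555 and 0.762 CPM and reached that level through Bahd1-KO, the group where they were high. Zfp628 (16 fingers, chr7:4915217-4922002, plus strand) was at 0.776, 0.453 and 0.436 CPM in Bahd1-WT replicates 1 to 3 and at 1.56, 11.6 and 3.33 CPM in Bahd1-KO replicates 1 to 3. The groups did not overlap, and replicate 2 was far above the other Bahd1-KO samples. The log2 fold change was 3.30 ± 0.69 (SE, n = 3 per group, adjusted p = 0.0634, edgeR's quasi-likelihood test), 2.14 without Bahd1-KO replicate 2 and 1.52 ± 0.30 with the offset. Its transcript is 63.5% GC, as rich as the stretch printed above.

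Zfp771 was at 0.896, 0.599 and 0.791 CPM in Bahd1-WT and at 1.24, 14.5 and 1.64 CPM in Bahd1-KO. Here the size of the change rested on a single sample, since the log2 fold change of 2.93 became 0.92 without Bahd1-KO replicate 2 and 0.33 with the offset. Its transcript had the highest GC among the tested members, 68.7%. Zfp651 was at 18.7, 12.03 and 14.7 CPM in Bahd1-WT and at 21.9, 78.9 and 39.4 CPM in Bahd1-KO, again with replicate 2 highest. Its log2 fold change was 1.63 ± 0.42 (SE, n = 3 per group), 1.02 without that replicate and 0.61 with the offset.

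The other 5 of the 8 were Zfp653 (log2 fold change 1.48), a co-repressor of nuclear receptors that shares 14.4% of its windows, Zfp710 (1.399), Zfp707 (1.38), Zfp853 (1.34) and Zfp768 (1.28). In each of them, chosen for high values, the Bahd1-KO samples lay above all Bahd1-WT samples and replicate 2 was the highest. The groups were so ordered in 11.2% of tested members and 20.6% of all genes. Adjusted p ran from 0.0634 for Zfp853 to 0.080 for Zfp707 in edgeR's quasi-likelihood test. Without Bahd1-KO replicate 2 the log2 fold changes of these 5 lay between 0.67 for Zfp768 and 0.96 for Zfp853. With the offset they ran from 0.00 for Zfp768 to 0.85 for Zfp653. Zfp707 was the single KRAB gene among the 8.

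**Figure D4:**
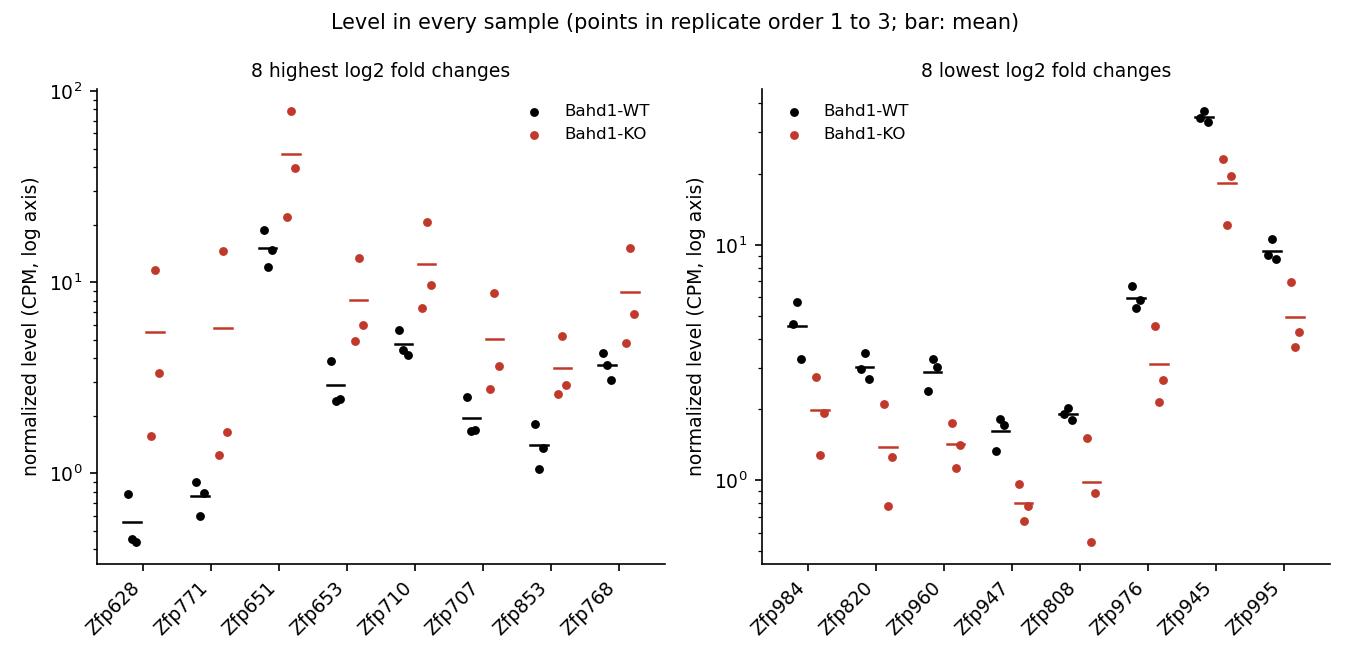
Normalized level (CPM, log axis) in each of the 3 Bahd1-WT (black) and 3 Bahd1-KO (red) samples for the 8 members with the highest and the 8 with the lowest log2 fold change among those at 1 CPM or more, with bars at the means. On the left the middle red point, Bahd1-KO replicate 2, is the highest point of each gene, from 5.20 CPM for Zfp853 to 78.9 CPM for Zfp651. On the right the same replicate is the lowest in each gene.

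The 8 lowest members by the same limit all carried the KRAB motif and had 9 to 22 fingers. Of these, Zfp947 and Zfp808 reached 1 CPM through Bahd1-WT, with Bahd1-KO means of 0.805 and 0.981 CPM. Zfp984 (11 fingers, chr4:147753974-147809788, minus strand) was at 4.62, 5.72 and 3.29 CPM in Bahd1-WT and at 2.74, 1.28 and 1.93 CPM in Bahd1-KO. The groups did not overlap, and the gap between their nearest samples was small. The log2 fold change was -1.20 ± 0.33 (SE, n = 3 per group, adjusted p = 0.066, edgeR's quasi-likelihood test) and -0.46 ± 0.20 with the offset. Zfp984 shares 47.5% of its 65-base windows with other genes, so that reads matching several genes may be missing from its counts.

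Zfp945 (18 fingers) was the most abundant of the 8 and shares under 1% of its windows. It was at 34.7, 37.2 and 33.2 CPM in Bahd1-WT and at 23.3, 12.2 and 19.6 CPM in Bahd1-KO. All Bahd1-KO samples lay well below the Bahd1-WT samples, with replicate 2 lowest. The log2 fold change was -0.93 ± 0.24 (SE, n = 3 per group) and -0.10 ± 0.10 with the offset. Zfp820 had a log2 fold change of -1.15, Zfp960 of -1.03, Zfp947 of -1.02, Zfp808 of -0.99, Zfp976 of -0.95 and Zfp995 of -0.93. In these 6, chosen for low values, all Bahd1-KO samples lay below all Bahd1-WT samples. The same held in 58.6% of tested members and 19.3% of all genes. With the offset these 6 ran from -0.42 for Zfp820 to -0.23 for Zfp976. Zfp960 shares 80.1% of its windows, Zfp808 33.5%, and Zfp976, Zfp947 and Zfp995 between 10.01 and 14.1%.

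Most clusters of KRAB members had negative medians. On chromosome 17 all 24 tested members had a negative log2 fold change, from -1.15 to -0.47, and in all 24 the Bahd1-KO samples lay below the Bahd1-WT samples (median -0.73), as in 19.3% of all genes. With the offset the median was -0.08, with 14 negative and 10 positive. The 13 tested members of chromosome 13 were also all negative, with a median of -0.71, which was 0.00 with the offset. Of these 13, 10 were lower at an unadjusted p under 0.05 without the offset, beside 12% of all genes, and none with it, beside 5.9%, in edgeR's quasi-likelihood test.

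The largest cluster, Zfp990 to Zfp933 on chr4:145510759-147848366, is an array of 17 KRAB genes in distal chromosome 4, of which 14 share over 10% of their windows with another gene. Its 12 tested members were all negative. Their median was -1.33 (log2 fold change), or -0.52 with the offset, when 9 of 12 stayed negative. At an unadjusted p under 0.05, 9 were lower without the offset, beside 12% of all genes, and 2, Zfp990 and Zfp984, with it, beside 5.9%. Most of the array had few counts, and 4 of the 12 (Zfp985, Zfp986, Zfp990 and Zfp993, named after their values were seen) had under 10 counts in all of Bahd1-KO and reached the minimum for testing through their Bahd1-WT counts. Over the 8 others the median was -1.07, and -0.27 with the offset, with 6 lower without the offset and 1, Zfp984, with it. Zfp990 had 15, 11 and 7 counts in Bahd1-WT and 0, 2 and 1 in Bahd1-KO. The ratio of Bahd1-KO to Bahd1-WT was 0.105, with an exact 95% interval of 0.0206 to 0.334. That interval covers counting error only. It does not allow for the choice of the tested member with the lowest log2 fold change, -3.15. The most abundant member, Zfp933, was at a mean of 31.4 CPM in Bahd1-WT and 24.1 CPM in Bahd1-KO, a log2 fold change of -0.38 that became 0.31 with the offset.

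Clusters of GC-rich members had positive medians. In the chromosome 7 cluster from Zfp771 to Zfp646 (chr7:127244274-127885996), the median over 9 tested members was 0.36, with 4 higher at an unadjusted p under 0.05, beside 19.9% of all genes, and none lower. With the offset the median was 0.12, with 1 higher and 1 lower, beside 17.5% and 5.9% of all genes. The 5 members from Zfp786 to Zfp746 on chromosome 6 had a median of 0.08, and -0.26 with the offset, when all 5 were negative. Zfp746, also known as PARIS, a substrate of parkin that represses PGC-1alpha, had a log2 fold change of 0.08, which was -0.07 with upper-quartile scaling, and -0.61 with the offset.

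**Figure D5:**
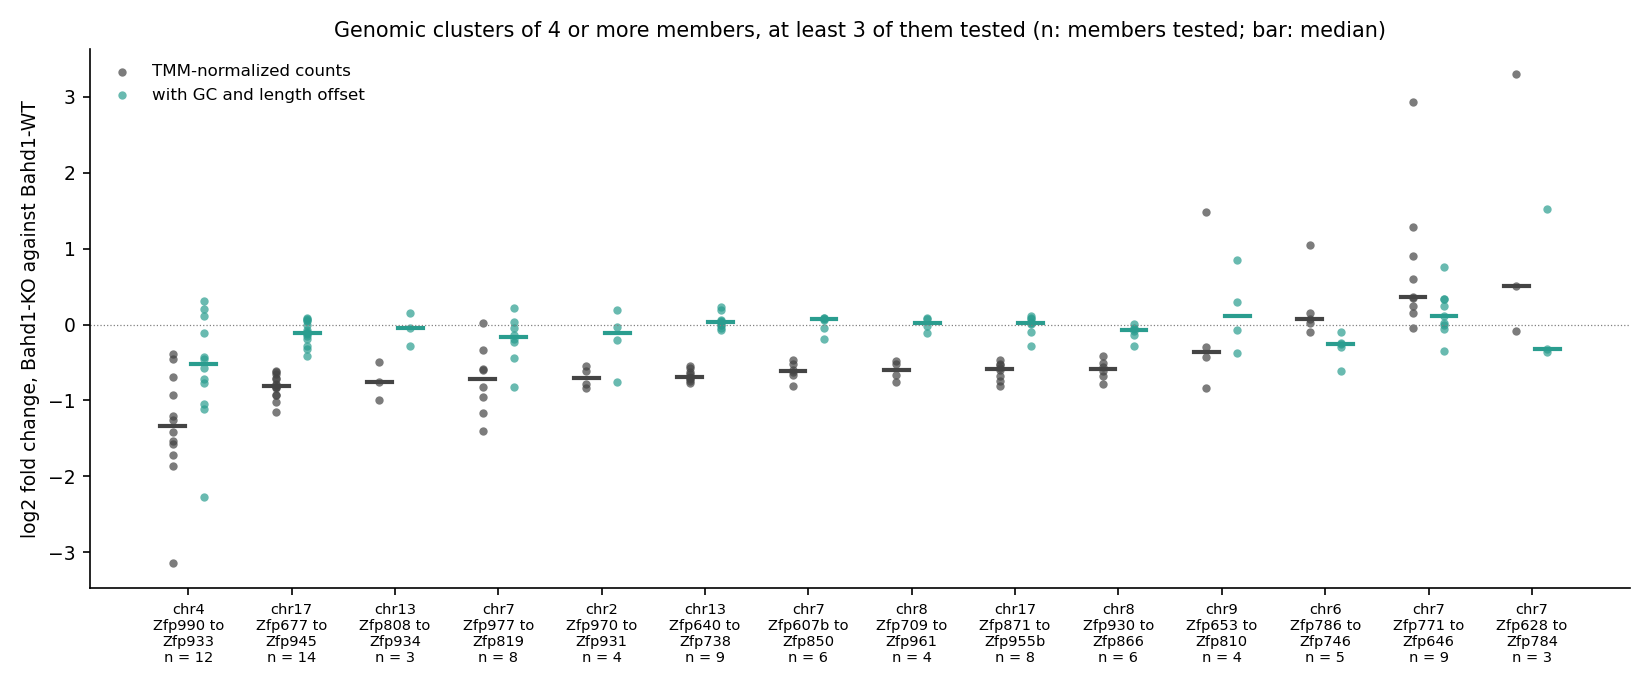
Log2 fold change of the tested members of each cluster with 4 or more members, at least 3 of them tested, from TMM-normalized counts (grey) and with the GC and length offset (green), with bars at the medians and clusters ordered by the grey median. The grey medians run from -1.33 for Zfp990 to Zfp933 to 0.51 for Zfp628 to Zfp784, and the green points of most clusters lie around 0. The median of Zfp990 to Zfp933 is at -0.52 in green, or -0.27 without its 4 members of under 10 counts in Bahd1-KO.

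Among the KRAB members known to bind retroelements, Zfp809, which recognises the primer binding site of retroviruses, was at 19.8, 19.6 and 19.5 CPM in Bahd1-WT and at 16.2, 11.99 and 15.6 CPM in Bahd1-KO. All 3 Bahd1-KO samples lay below a tight Bahd1-WT group. The log2 fold change was -0.43 ± 0.18 (SE, n = 3 per group, adjusted p = 0.151, edgeR's quasi-likelihood test) and -0.07 ± 0.14 with the offset. Zfp932, a repressor of endogenous retroviruses, was at 21.0, 25.4 and 21.0 CPM in Bahd1-WT and at 17.4, 8.99 and 12.4 CPM in Bahd1-KO, for a log2 fold change of -0.80, and -0.09 with the offset. The groups did not overlap in Zfp932 either, which shares 37.1% of its windows with other genes. Zfp961 had a log2 fold change of -0.48, and 0.07 with the offset. Zfp819, at 4 to 20 counts per sample, had overlapping groups and a log2 fold change of -0.34 ± 0.52.

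Among members without the KRAB motif that have known roles, Zfp644, a partner of the methyltransferases G9a and GLP, was at 119, 131 and 117 CPM in Bahd1-WT and at 106, 62.9 and 84.4 CPM in Bahd1-KO. Its groups did not overlap. The log2 fold change was -0.53 ± 0.20 (SE, n = 3 per group, adjusted p = 0.118, edgeR's quasi-likelihood test), and the sign turned with the offset, to 0.21 ± 0.09. Zfp711, an X-linked gene tied to intellectual disability in humans, had a log2 fold change of -0.73, and -0.08 with the offset. Zfp804a, the mouse counterpart of a schizophrenia risk gene, was at 40.8, 39.8 and 44.9 CPM in Bahd1-WT and at 32.4, 27.2 and 32.7 CPM in Bahd1-KO. The log2 fold change of Zfp804a was -0.44 ± 0.16, with groups that did not overlap, and -0.03 ± 0.11 with the offset.

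The groups overlapped in Zfp609, which acts in the migration of cortical neurons (log2 fold change 0.13), in Zfp618, a partner of UHRF2 (0.04), and in Zfp827 (0.10), all of which turned negative with upper-quartile scaling, a setting that moved the median of all genes by -0.14. They overlapped in Zfp704 (-0.24) and in Zfp804b (-0.36). They also overlapped in Zfp687 (0.48) and in Zfp750 (0.25), a regulator of epidermal differentiation with under 2 CPM in every sample. Zfp703, a transcriptional co-repressor, was at 16.03, 18.3 and 14.8 CPM in Bahd1-WT and at 19.9, 27.9 and 20.6 CPM in Bahd1-KO. These groups did not overlap, and the log2 fold change of 0.48 ± 0.20 became -0.71 ± 0.25 with the offset. The transcript of Zfp703 is 60.6% GC.

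With the offset, 5 members had an adjusted p under 0.1 in edgeR's quasi-likelihood test: Zfp628, Zfp821, Zfp622 and Zfp651 were higher and Zfp810, named after its values were seen, was lower. Over all genes 6.26% were higher and 1.31% lower by that rule. Zfp622, which acts in the assembly of the large ribosomal subunit, was at 26.5, 26.8 and 25.7 CPM in Bahd1-WT and at 33.2, 38.7 and 24.4 CPM in Bahd1-KO, so that its samples overlapped before the offset. Its log2 fold change was 0.29 ± 0.20, and 0.88 ± 0.25 with the offset. Zfp821 went from 0.54 ± 0.23 to 1.09 ± 0.30 and Zfp787 from 0.66 ± 0.37 to 1.03 ± 0.41. Zfp839, in turn, went from -0.07 to -0.44. In Zfp622, Zfp821 and Zfp787, with transcripts of 43.6 to 47.0% GC, the log2 fold change was thus larger with the offset than without it. Their coding sequences were richer, at 58.1%, 53.7% and 65.6% GC. The offset used the longest transcript, so these values need not be free of a trend with GC. Bahd1-KO replicate 2 was the highest sample in each of these genes. Without that replicate the log2 fold changes before the offset were 0.12, 0.29 and 0.06. The groups of Zfp787 overlapped with and without the offset, as it was at 5.005, 4.15 and 4.79 CPM in Bahd1-WT and at 4.44, 12.3 and 5.23 CPM in Bahd1-KO.

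The 6 most abundant members were Zfp706, with a log2 fold change of -0.32, Zfp612 (-0.39), Zfp664 (-0.19), Zfp938 (-0.61), Zfp869 (-0.56) and Zfp788 (-0.86). All Bahd1-KO samples lay below all Bahd1-WT samples in Zfp612, Zfp869 and Zfp788, as in 58.6% of tested members and 19.3% of all genes. Zfp788 (23 fingers) was at 81.7, 100 and 76.2 CPM in Bahd1-WT and at 65.7, 31.5 and 45.4 CPM in Bahd1-KO. With the offset the log2 fold changes ran from -0.19 for Zfp788 to 0.21 for Zfp706.

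The KRAB domain works through TRIM28 and the proteins it brings along, and 32 genes of that pathway were examined beside the members. None was called in edgeR's quasi-likelihood test, and DESeq2 with its normal prior called 3 (9.68% of the 31 with an adjusted p), all higher, beside 11.9% of all genes with one. At an unadjusted p under 0.05 in edgeR's test, 5 (15.6%) were higher (Ehmt2, Trim28, Mta1, Dnmt1 and Chd3) and 8 (25%) were lower (Fam208a, Suv39h2, Trim33, Smarcad1, Cbx5, Mphosph8, Morc3 and Trim24), beside 19.9% and 12% of all genes. Trim28 was at 39.7, 26.3 and 33.3 CPM in Bahd1-WT and at 49.97, 104 and 69.9 CPM in Bahd1-KO. The groups of Trim28 did not overlap, and the log2 fold change was 1.18 ± 0.28 (SE, n = 3 per group, adjusted p = 0.0634, edgeR's quasi-likelihood test) and 0.04 with the offset. Ehmt2, which encodes G9a, had 1.46, which was 0.88 without Bahd1-KO replicate 2 and 0.13 with the offset. Setdb1 was at 41.9 to 44.1 CPM in Bahd1-WT and at 37.1 to 44.5 CPM in Bahd1-KO, with a log2 fold change of -0.11. The pathway as a list had a median of -0.09, against -0.63 for the KRAB members. With the offset these medians were 0.07 and -0.05. The median GC of the longest transcript was 49.4% in the pathway and 40.6% in the KRAB members, and the lists were not matched on it.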

How the data were processed

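The deposited counts were whole reads per gene, not normalized. Per the labels and the study's methods, the authors built TruSeq Stranded mRNA libraries, trimmed reads with cutadapt 1.11, aligned them to GRCm38 with STAR 2.5.0a and counted genes with featureCounts 1.4.6-p3 under a forward-strand setting, whose effect on counts from this stranded kit was not tested. The methods describe single-end reads of 65 bases and, in a supplement, also a paired-end run with another aligner, so the 65-base windows may differ from the reads counted. From these counts, edgeR 4.0.16 (R 4.3.3) was run on the 23975 genes with a sum of at least 10, with TMM factors, genotype as the only term and Benjamini-Hochberg adjustment over all of them. Genes were called at an adjusted p under 0.05 with a log2 fold change of 1 or more, up or down. CPM are TMM-normalized, and RPKM use exon lengths of GENCODE M21. KRAB and finger motifs were searched in translated GENCODE coding sequences, in place of RefSeq proteins. Alternatives were DESeq2 1.42.0, other scalings and filters, a replicate block, each sample left out, and an offset of natural splines in GC (5 df) and length (3 df). Both were taken from the longest GENCODE transcript of each gene, which need not be the transcript expressed in brain. The edgeR step was tested on simulated counts with the same fixed spread for every gene, which need not match the spread of these samples.

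Named members were the 8 highest and 8 lowest log2 fold changes at 1 CPM or more, the 5 highest and 5 lowest with the offset, the 6 highest in RPKM, those with counts in 1 genotype only, and those of known role. The members and lists were chosen with earlier results of these data known. Intervals between samples cover the spread of 3 samples per group only.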

Additional observations from a re-analysis of the deposited data

How the results depend on the processing

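Members called were 0 in edgeR's quasi-likelihood test, 8 with total counts, 11 by DESeq2 with the normal prior, 15 by DESeq2 without a prior and 17 with no filter beyond 1 count, beside 8.37%, 13.1%, 14.3% and 8.45% of all genes under the last 4 settings (pathway genes: 0, 2, 3, 3 and 3). With the GC and length offset, members lower at an unadjusted p under 0.05 went from 86 to 10, and their median log2 fold change from -0.55 to -0.0069. Pathway genes with the offset were 3 higher (9.38%) and 1 lower (3.12%), beside 17.5% and 5.9% of all genes, with a median of 0.069. Without the members that share over 10% of windows, 57 of 122 (46.7%) were lower, beside 50.9% of all tested members and 12% of all genes. The pathway median was -0.24 under upper-quartile scaling and -0.020 under total counts. With total counts 2 pathway genes were lower, beside 7.42% of all genes. Upper-quartile factors moved the median of all genes by -0.14 and the offset moved it by 0.15, and changes under those settings are to be read relative to these shifts. With upper-quartile factors 103 members were lower and 14 higher, beside 18.1% lower and 16.6% higher over all genes. Without the 7 members that had under 10 counts in a genotype, a choice made after seeing the data, 83 of 162 were lower and 16 higher. Over all genes 12% were lower and 19.9% higher.

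Same-numbered samples correlated at -0.63, -0.64 and -0.14 in their deviations from the group means, so the replicate numbers were not taken as pairs, and no sample correlated best with its own number. With the replicate block, 11 members were higher and 60 lower, beside 15.1% higher and 6.68% lower over all genes, and 3 pathway genes were lower. With the offset and the replicate block, 9 members were higher and 7 lower (12% and 4.4% of all genes) with a median of -0.0075, and 1 pathway gene was higher and 0 lower with a median of 0.065.

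With each sample left out in turn, members called ran from 0 to 42 (the highest without Bahd1-KO replicate 1), higher from 11 to 22, lower from 31 (without Bahd1-WT replicate 2, when 4.79% of all genes were lower) to 102 (without Bahd1-KO replicate 1, when 18.6% were), and their median from -0.69 to -0.40. For the pathway, called ran from 0 to 3, higher from 3 to 6, lower from 2 to 10 and the median from -0.17 to 0.025. Over all genes in the same fits, called ran from 0% to 16.8%, higher from 13.5% to 24.7% and lower from 4.79% to 18.6%.

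Of 44 named genes, 17 changed sign under some setting, and 8 did once the shift of the median of all genes under that setting was taken off. With the offset, and then with the offset and the replicate block, log2 fold changes became for Zfp687 -0.11 and -0.11, Zfp704 0.11 and 0.11, Zfp612 0.10 and 0.10, Zfp768 -0.0022 and -0.0041, Zfp644 0.21 and 0.20, Zfp961 0.070 and 0.074, Zfp746 -0.61 and -0.62, Zfp706 0.21 and 0.20, Zfp938 0.086 and 0.086, Zfp664 0.014 and 0.016, Zfp703 -0.71 and -0.73, Zfp804b 0.12 and 0.14, and Setdb1 0.16 and 0.16. Zfp839 was 0.0057 with total counts, which moved the median of all genes by 0.076. With upper-quartile factors Zfp618 was -0.10, Zfp609 -0.010, Zfp746 -0.071 and Zfp827 -0.038. Zfp618 was -0.078 without Bahd1-WT replicate 2 and -0.078 without Bahd1-KO replicate 3, and Zfp746 was -0.017 without Bahd1-KO replicate 2. The cause was not tested, beyond what the offset removes by construction. A count of 0 allows up to 3 counts, or 0.0315 to 0.0690 CPM per library, for counting error only.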
